A study of Homo sapiens with 9 samples.

Results

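Lysosomal genes were followed across pseudopodia, cell bodies and whole cells of a human mesenchymal stem cell line. They were 39 genes chosen by symbol, of 62709 genes with values. By role they were 12 cathepsins, 2 other hydrolases of proteins and lipid-modified proteins (TPP1 and PPT1), 6 lysosomal membrane proteins, 13 glycosidases and sulfatases, and 6 proteins of lipid breakdown and sterol transport. Lysosomes are acidic organelles in which soluble hydrolases break down proteins, sugars and lipids. Those hydrolases are made at the endoplasmic reticulum, tagged in the Golgi and carried by sorting receptors to endosomes, and the membrane proteins keep the organelle closed, acidic and supplied with transporters. In mesenchymal cells, secreted cathepsins and lysosomes that move to the cell edge are also known for their part in matrix turnover.

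The cells were hTERT-MSC, an adipose-derived human line kept dividing by telomerase. It is a single established line, so the libraries do not sample donors. Starved cells sat on membranes with 3 µm pores for 2 h without serum, and then over 50 ng/mL PDGF-BB, an attractant for mesenchymal cells, for 1 h. The pseudopodia group, with 3 libraries, was scraped from the underside of the membrane after cells had pushed protrusions through the pores. The cell body group, with 3 libraries, was the remainder on the upper side. The whole cell group, with 3 libraries, carries the same PDGF-BB label, and how it was collected is not stated on its own. No group went without PDGF-BB, and the labels name no altered allele beyond the telomerase of the line. The labels do not tie libraries to separate cultures, so the spread between libraries may be technical, and p-values speak for these samples only.

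Library totals lay between 55469030 and 83894938 counts. Levels are given as CPM (counts scaled by library total and TMM factor), or as TPM where genes of different length are set side by side. The biological coefficient of variation over all tested genes was 31.9% among pseudopodia libraries, 17.6% among cell body libraries and 5.09% among whole cell libraries. The mesenchymal label was checked with 8 markers, all of which passed the expression filter. Pseudopodia libraries gave them 1.91 to 2.29% of their counts, cell body libraries 3.20 to 3.68% and whole cell libraries 3.56 to 3.64%, with THY1 at 362 CPM or more in every library. Against cell body, 7 of the 8 were called lower in pseudopodia and 0 higher, with a median log2 fold change of -1.07. Of all tested genes, 19.9% were called lower in that comparison. The lower marker share in pseudopodia runs beside the results that follow, and its part in them was not tested. Of 8 macrophage markers, 5 failed the filter, among them TYROBP with no count in pseudopodia. Of the other 3, CD14 was lower in pseudopodia than in cell body (-1.71) and CSF1R and PTPRC were not called. Against whole cell, CD14 (0.57) and CSF1R (2.74) were higher in pseudopodia and PTPRC (-1.65) lower, and CD14 (2.28) and CSF1R (2.13) were higher in cell body. All 8 together took at most 0.000654% of the counts of a pseudopodia library, 0.00149% of a cell body library and 0.000374% of a whole cell library. Of 5 adipocyte markers, FABP4 had no count in any library and 3 were tested, of which LEP (at most 0.347 CPM) was higher and LPL (at most 0.452 CPM) lower in pseudopodia than in cell body. The adipocyte list took at most 8.79e-05% of the counts of a pseudopodia library, 8.54e-05% of a cell body library and 0.000171% of a whole cell library. In pseudopodia against cell body, VWF of 4 tested endothelial markers was higher and TEK and CDH5 were lower, none of 3 tested epithelial markers was called, and of 3 tested melanocyte or osteoclast markers MLANA was higher and PMEL and ACP5 were lower. Each of these 3 lists took at most 0.0321% of the counts of any library, and their part in the results was not tested.

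As shares of all TPM, the 39 genes held 0.285, 0.258 and 0.327% in pseudopodia, 0.94, 0.924 and 0.949% in cell body, and 0.781, 0.798 and 0.776% in whole cell. Every pseudopodia library thus lay below every library of the other groups, and the cell body libraries lay above the whole cell ones. The same few genes led in each group on the TPM scale: CD63, PSAP and CTSB together made up 60.9% of the summed TPM of the 39 genes in pseudopodia, 60.8% of that sum in cell body and 57.6% of it in whole cell. CD63 came first in pseudopodia with a mean of 1000.0 TPM, while PSAP came first in cell body with 2519 TPM and in whole cell with 2230 TPM. CTSV, a cathepsin with a narrow tissue range, had between 0 and 12 counts per library and was left untested, so 38 genes entered the comparisons.

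**Figure D1:**
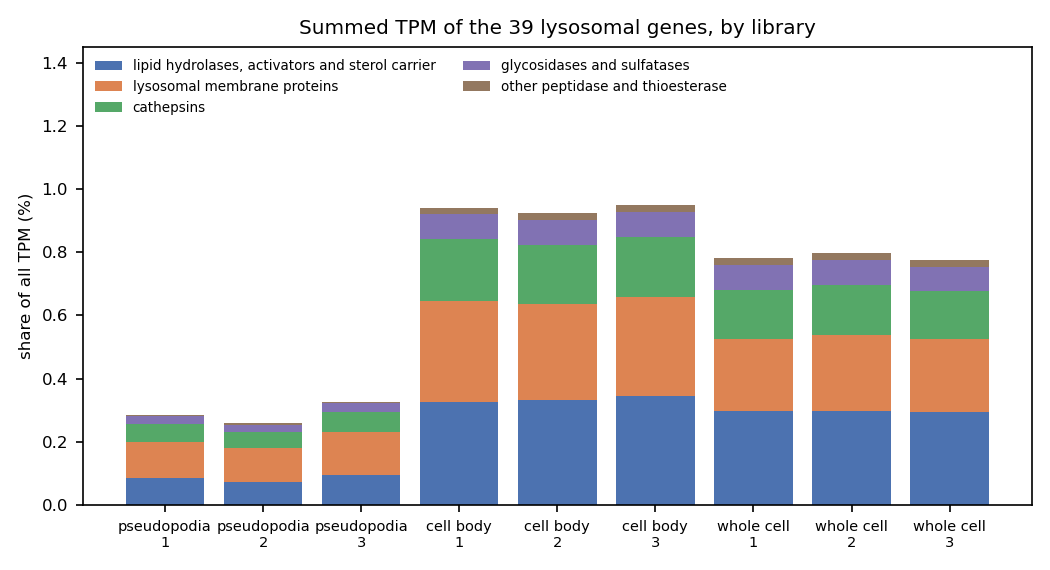
Stacked bars give the share of all TPM (percent, y axis) held by the 39 lysosomal genes in each of the 9 libraries, split by role. Pseudopodia bars end between 0.258 and 0.327%, cell body bars between 0.924 and 0.949%, and whole cell bars between 0.776 and 0.798%.

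Many lysosomal genes carry near their start the CLEAR element, a palindrome with an E-box core (CACGTG) that is bound by TFEB and its relatives. RefSeq promoter windows (GRCh38.p14, 250 bases before to 50 after the start) were found for 27 of the 39 genes. Only 1 window per gene was searched, so a core near another start of a gene would be missed. The core was in 8 of these 27 windows (29.6%), against 7.43% of 27305 windows of all genes and 9.47% of 12794 windows of tested genes. Extended by 1 base on each side (TCACGTGA) it was in 4 (14.8%), against 1.04% of all windows and 1.73% of windows of tested genes. With 2 bases on each side (GTCACGTGAC) it was in 2 (7.41%), against 0.381% of all windows and 0.711% of windows of tested genes. Each of these motifs is its own reverse complement, so a match counts for both strands, and the longer ones contain the shorter. Windows of LAMP1, CTSA, GAA, MCOLN1 and CD63 are shown because they hold the core, and they were chosen after the matches were seen. Windows of LIPA and IDS do not hold the core. They are shown because these genes had, among those with a window, the lowest and the highest log2 fold change in pseudopodia against cell body. Each is the 250 bases before the start, 5′ to 3′ on the strand of the gene, with the motif in capitals. The windows are chr13:113296989-113297238 (plus), chr20:45891085-45891334 (plus), chr17:80101331-80101580 (plus), chr19:7522374-7522623 (plus), chr12:55729010-55729259 (minus), chr10:89414680-89414929 (minus) and chrX:149505307-149505556 (minus).
LAMP1: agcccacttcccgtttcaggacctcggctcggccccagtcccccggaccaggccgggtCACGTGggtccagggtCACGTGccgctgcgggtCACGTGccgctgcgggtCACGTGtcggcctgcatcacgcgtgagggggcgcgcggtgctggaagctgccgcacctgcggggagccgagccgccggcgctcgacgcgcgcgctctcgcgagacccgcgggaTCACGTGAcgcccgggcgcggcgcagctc
CTSA: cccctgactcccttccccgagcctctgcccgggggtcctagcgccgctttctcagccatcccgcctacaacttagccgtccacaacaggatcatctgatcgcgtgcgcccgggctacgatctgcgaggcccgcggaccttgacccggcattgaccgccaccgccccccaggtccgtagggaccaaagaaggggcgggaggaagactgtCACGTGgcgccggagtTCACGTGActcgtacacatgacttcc
GAA: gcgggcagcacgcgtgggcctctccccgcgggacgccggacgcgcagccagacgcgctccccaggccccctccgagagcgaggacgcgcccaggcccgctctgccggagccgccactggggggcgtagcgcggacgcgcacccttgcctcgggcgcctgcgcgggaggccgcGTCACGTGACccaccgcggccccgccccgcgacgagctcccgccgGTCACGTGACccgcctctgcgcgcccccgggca
MCOLN1: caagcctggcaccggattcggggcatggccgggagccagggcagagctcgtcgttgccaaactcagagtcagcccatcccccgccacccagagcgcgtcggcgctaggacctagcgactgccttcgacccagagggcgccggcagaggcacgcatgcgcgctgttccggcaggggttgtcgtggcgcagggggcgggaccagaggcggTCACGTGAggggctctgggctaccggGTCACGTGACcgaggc
CD63: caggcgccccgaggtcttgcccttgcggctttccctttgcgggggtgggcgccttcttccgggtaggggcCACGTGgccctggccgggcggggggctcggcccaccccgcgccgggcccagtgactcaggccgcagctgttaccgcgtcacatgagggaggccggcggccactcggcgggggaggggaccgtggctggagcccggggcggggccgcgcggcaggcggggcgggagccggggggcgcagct
LIPA: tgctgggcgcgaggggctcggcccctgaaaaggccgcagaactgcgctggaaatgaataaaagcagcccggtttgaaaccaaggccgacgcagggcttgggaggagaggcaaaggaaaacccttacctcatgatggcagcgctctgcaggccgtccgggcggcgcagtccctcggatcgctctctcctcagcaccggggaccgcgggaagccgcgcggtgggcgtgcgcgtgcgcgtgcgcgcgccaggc
IDS: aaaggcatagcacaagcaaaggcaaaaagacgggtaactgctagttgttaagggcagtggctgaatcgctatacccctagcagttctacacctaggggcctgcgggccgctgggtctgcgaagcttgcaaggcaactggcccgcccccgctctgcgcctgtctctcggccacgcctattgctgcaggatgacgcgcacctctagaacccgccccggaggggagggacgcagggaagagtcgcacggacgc

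The first comparison set protrusions pulled through the pores against the cell bodies left behind. Of the 38 tested genes, 0 were called higher and 37 were called lower in pseudopodia (edgeR's quasi-likelihood test, Benjamini-Hochberg adjusted p under 0.05), against 18.6% of all tested genes higher and 19.9% lower. The count of 0 was also 0 at an unadjusted p under 0.05, and 0 with DESeq2. A fold of at least 2 was reached by 29 of the 37, and the share of all tested genes at that fold was not counted. In 37 of 38 genes every pseudopodia library lay below every cell body library, which held for 24.5% of all tested genes. The median log2 fold change was -1.51 over the 38 genes and -0.05 over all tested genes, and the genes ranged between -2.64 for LAMP2 and 0.21 for IDS. CPM is a share of each library, so less RNA of a gene and more RNA of other genes cannot be told apart, nor can fewer cell parts and less RNA in each.

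Cathepsins are proteases, most of them cysteine proteases of the papain family. All 11 tested cathepsins were lower in pseudopodia than in cell body, with a median log2 fold change of -1.50. CTSB had 748, 676 and 959.8 CPM in pseudopodia, 2032, 2085 and 2080 CPM in cell body and 1433, 1487 and 1453 CPM in whole cell. CTSB (ENSG00000164733, chromosome 8, 11842524 to 11869448, minus strand in GENCODE 29 on GRCh38) is a broadly expressed cysteine protease and was the most abundant cathepsin in each group on the TPM scale. Its 3 groups did not overlap, and its log2 fold change in pseudopodia against cell body was -1.38 ± 0.138 (SE, adjusted p = 1.75e-05). CTSL had 113, 115 and 132 CPM in pseudopodia, 378, 364 and 373 CPM in cell body and 192, 205 and 199.5 CPM in whole cell. CTSL, a cysteine endopeptidase with named pseudogene copies, changed by -1.63 ± 0.114 (SE, adjusted p = 1.43e-06), and its groups were also fully apart, with pseudopodia lowest and cell body highest. CTSD had 120.1, 100.2 and 158 CPM in pseudopodia, 399, 345 and 328 CPM in cell body and 250.5, 294 and 260.3 CPM in whole cell. CTSD (ENSG00000117984, chromosome 11, 1752752 to 1764573, minus strand), the main aspartic protease of lysosomes, changed by -1.50 ± 0.17 (SE, adjusted p = 4.29e-05). The highest pseudopodia library of CTSD was still well below the lowest whole cell library.

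CTSK, known for collagen breakdown by osteoclasts, and CTSC, which activates granule serine proteases in immune cells, were among the cathepsins that fell most. CTSK had 126, 112 and 129 CPM in pseudopodia, 508, 454 and 457 CPM in cell body and 332, 352 and 337 CPM in whole cell. Its log2 fold change against cell body was -1.95 ± 0.117 (SE, adjusted p = 5.5e-07), and pseudopodia replicates differed little from each other. CTSC had 51.4, 46.9 and 31.6 CPM in pseudopodia, 194, 178 and 187 CPM in cell body and 181, 187 and 178 CPM in whole cell. CTSC (ENSG00000109861, chromosome 11, 88293592 to 88337787, minus strand) changed by -2.11 ± 0.17 (SE, adjusted p = 3.77e-06), with pseudopodia replicate 3 lowest. CTSS had 0.939, 1.4 and 0.887 CPM in pseudopodia, 4.97, 5.14 and 4.99 CPM in cell body and 5.10, 3.89 and 3.81 CPM in whole cell. CTSS, best known from antigen-presenting cells, was scarce in all groups and had the lowest value among the cathepsins, -2.22 ± 0.218 (SE, adjusted p = 1.51e-05), with every pseudopodia library below all others. On log2(TPM + 1), which draws low values together, it was -1.40. CD14, a macrophage marker, had 3.26, 3.03 and 4.28 CPM in pseudopodia, 12.6, 11.6 and 10.2 CPM in cell body and 2.43, 2.54 and 2.15 CPM in whole cell, with cell body highest, and its part in the CTSS result was not tested.

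CTSA, a serine carboxypeptidase that also protects neuraminidase and beta-galactosidase, had a fold change near that of CTSL. CTSA had 139, 123 and 169 CPM in pseudopodia, 448, 448 and 408 CPM in cell body and 343, 366 and 354 CPM in whole cell. Its change was -1.60 ± 0.136 (SE, adjusted p = 5.26e-06), and no 2 groups overlapped. CTSF had 23.0, 17.96 and 29.9 CPM in pseudopodia, 47.8, 42.9 and 40.3 CPM in cell body and 34.7, 35.8 and 33.1 CPM in whole cell. CTSF, a cysteine protease, changed by -0.89 ± 0.174 (SE, adjusted p = 0.00201), and pseudopodia replicate 3 came close to the whole cell libraries. CTSO, a cysteine cathepsin, averaged 23.0 ± 3.8 CPM in pseudopodia, 57.8 ± 7.14 CPM in cell body and 53.3 ± 1.33 CPM in whole cell (SD, n = 3 each) and changed by -1.33 ± 0.152 (SE, adjusted p = 4.53e-05). CTSH, an aminopeptidase, was rare at 3.49 ± 0.504 CPM in pseudopodia, 7.76 ± 1.3 CPM in cell body and 6.16 ± 0.151 CPM in whole cell, with a change of -1.15 ± 0.18 (SE, adjusted p = 0.000431). CTSZ had 163, 148 and 222 CPM in pseudopodia, 248, 238 and 229 CPM in cell body and 183, 203 and 191 CPM in whole cell. CTSZ, a carboxypeptidase, was the cathepsin closest to parity with the cell body. It changed by -0.43 ± 0.151 (SE, adjusted p = 0.0445), and the call was lost in 9 of 19 alternative analyses, among them leaving out pseudopodia replicate 1 (-0.37, adjusted p = 0.141), pseudopodia replicate 2 (-0.31, 0.103), or any 1 cell body library (-0.44 to -0.37).

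**Figure D2:**
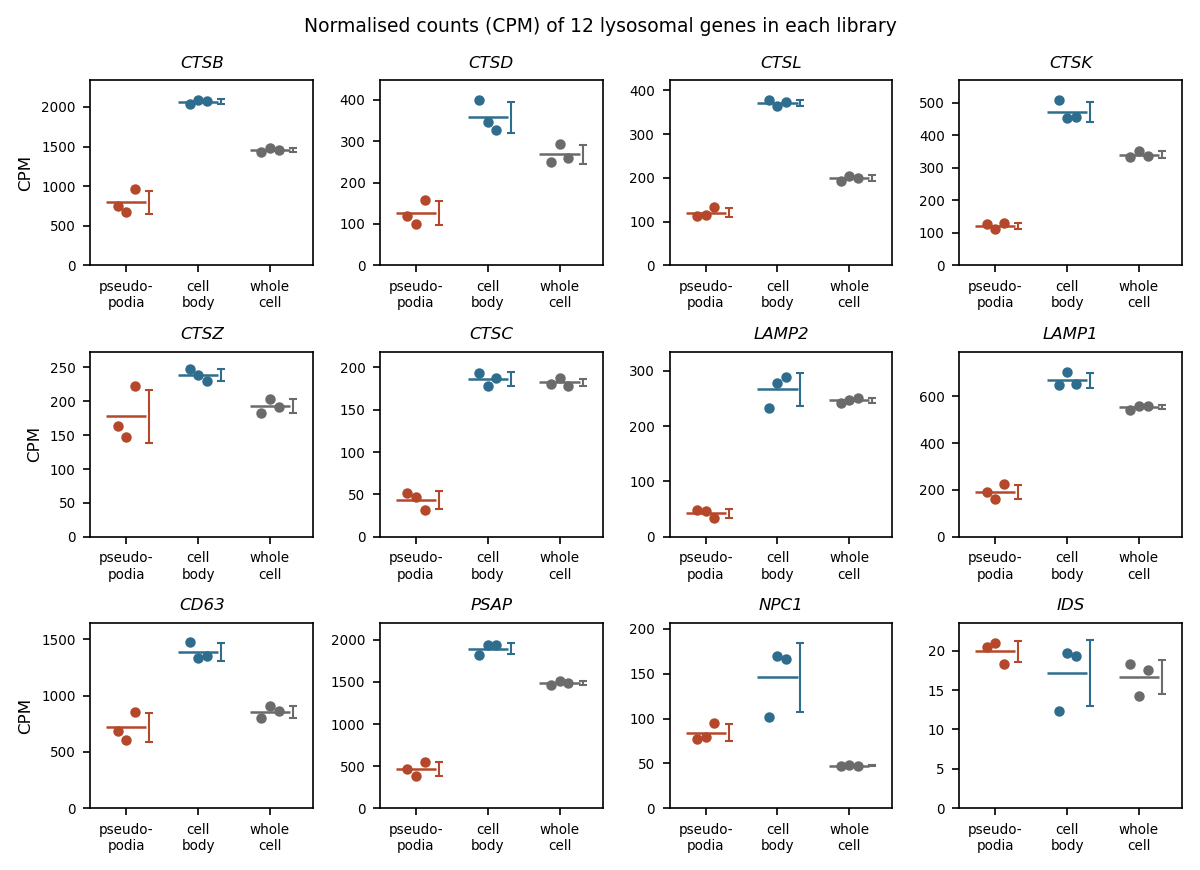
Each panel shows 1 lysosomal gene, with CPM on the y axis (starting at 0), 1 point per library, a horizontal line at the group mean and a bar of 1 SD (n = 3) beside it. Pseudopodia points lie lowest for CTSB, CTSD, CTSL, CTSK, CTSC, LAMP2, LAMP1 and PSAP, between the other groups for NPC1, and within the range of the other libraries or just above it for IDS.

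TPP1, a tripeptidyl peptidase, and PPT1, which removes palmitate from proteins, were both lower in pseudopodia than in cell body. TPP1 had 39.6, 35.7 and 44.3 CPM in pseudopodia, 134, 168 and 155 CPM in cell body and 170.3, 178 and 178 CPM in whole cell. TPP1 (ENSG00000166340, chromosome 11, 6612763 to 6619485, minus strand) changed by -1.93 ± 0.133 (SE, adjusted p = 1.32e-06), the larger change of the pair, and its pseudopodia libraries were far below all others. PPT1 averaged 27.8 ± 3.31 CPM in pseudopodia, 87.2 ± 6.24 CPM in cell body and 71.8 ± 2.98 CPM in whole cell and changed by -1.65 ± 0.129 (SE, adjusted p = 3.1e-06). PPT1 shares exon bases with the antisense gene CAP1, whose counts reached 816% of those of PPT1, and without a stated strand setting the reads of the pair cannot be told apart.

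All 6 membrane proteins were lower in pseudopodia than in cell body, with log2 fold changes between -2.64 and -0.79. LAMP2 and LAMP1 are the heavily glycosylated main proteins of the lysosomal membrane. LAMP2 had 48.8, 45.8 and 33.8 CPM in pseudopodia, 233, 278 and 289.6 CPM in cell body and 241, 247 and 251 CPM in whole cell. LAMP2 (ENSG00000005893, chromosome X, 120427827 to 120469365, minus strand) had the lowest log2 fold change of all, -2.64 ± 0.16 (SE, adjusted p = 5.92e-07), and -2.03 after a correction for GC content and length. Its highest pseudopodia library was far below the lowest library of the other groups. LAMP1 had 189, 162 and 224 CPM in pseudopodia, 648, 705 and 652 CPM in cell body and 542, 558 and 558 CPM in whole cell. LAMP1 (ENSG00000185896, chromosome 13, 113297241 to 113323672, plus strand) changed by -1.80 ± 0.136 (SE, adjusted p = 2.47e-06), with pseudopodia libraries well below all others. SCARB2, the receptor that carries glucocerebrosidase to lysosomes, averaged 118 ± 15.0 CPM in pseudopodia, 396 ± 39.8 CPM in cell body and 342 ± 4.67 CPM in whole cell and changed by -1.75 ± 0.134 (SE, adjusted p = 2.76e-06).

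CD63, NPC1 and MCOLN1 had log2 fold changes closer to 0 than the LAMP pair, a difference that was not tested. CD63 had 687, 609 and 855 CPM in pseudopodia, 1477, 1332 and 1353 CPM in cell body and 798, 908 and 859 CPM in whole cell. CD63 (ENSG00000135404, chromosome 12, 55725323 to 55729707, minus strand), a tetraspanin of late endosomes and secreted vesicles, changed by -0.95 ± 0.14 (SE, adjusted p = 0.00029) against cell body, while its pseudopodia and whole cell libraries overlapped. An antisense gene that overlaps CD63, AC009779.2, had 2610, 2477 and 2397 counts in the pseudopodia libraries, 166, 127 and 173 in the cell body libraries and 394, 267 and 196 in the whole cell libraries, at most 5.53% of the CD63 counts of a library. NPC1 had 77.5, 79.7 and 95.2 CPM in pseudopodia, 102, 170.2 and 166 CPM in cell body and 47.6, 47.8 and 47.5 CPM in whole cell. NPC1 (ENSG00000141458, chromosome 18, 23506184 to 23586898, minus strand), which exports cholesterol from lysosomes, changed by -0.79 ± 0.183 (SE, adjusted p = 0.00543), with cell body highest and whole cell lowest, and cell body replicate 1 was lower than the other 2. RMC1, which overlaps NPC1, had up to 28.9% as many counts. MCOLN1 had 11.7, 9.05 and 13.6 CPM in pseudopodia, 20.0, 19.7 and 21.6 CPM in cell body and 18.1, 19.2 and 17.6 CPM in whole cell. MCOLN1, a cation channel of late endosomes and lysosomes, changed by -0.84 ± 0.159 (SE, adjusted p = 0.00163). It shares exon bases on the same strand with PNPLA6, whose counts reached 578% of those of MCOLN1. The MCOLN1 groups were apart, with pseudopodia lowest.

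Glycosidases and sulfatases strip sugars and sulfates from glycogen, glycoproteins, glycolipids and matrix glycosaminoglycans. Of the 13, 12 were lower in pseudopodia than in cell body and IDS was not called. GLB1 (beta-galactosidase) averaged 33.7 ± 5.47 CPM in pseudopodia, 112 ± 8.85 CPM in cell body and 94.6 ± 2.39 CPM in whole cell (SD, n = 3 each) and had the lowest log2 fold change of the group, -1.74 ± 0.14 (SE, adjusted p = 3.77e-06). SGSH, a sulfatase for heparan sulfate, averaged 22.4 ± 4.22 CPM in pseudopodia, 73.4 ± 3.84 CPM in cell body and 73.8 ± 1.75 CPM in whole cell and changed by -1.71 ± 0.146 (SE, adjusted p = 5.52e-06). Its antisense neighbour SLC26A11 had up to 58.7% as many counts. GUSB (beta-glucuronidase) averaged 22.3 ± 3.00 CPM in pseudopodia, 70.2 ± 3.61 CPM in cell body and 57.7 ± 1.89 CPM in whole cell and changed by -1.66 ± 0.131 (SE, adjusted p = 3.52e-06), with the caveat that named pseudogene copies exist. GAA, the enzyme that breaks down lysosomal glycogen, averaged 58.0 ± 11.3 CPM in pseudopodia, 180.4 ± 8.75 CPM in cell body and 163 ± 1.82 CPM in whole cell and changed by -1.64 ± 0.146 (SE, adjusted p = 7.5e-06). The fitted pseudopodia level of these 4 enzymes was 30.0% of the cell body level for GLB1, 30.5% for SGSH, 31.8% for GUSB and 32.1% for GAA.

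Further members of the group had changes of -1.61 ± 0.125 (SE, adjusted p = 3.03e-06) for MANBA (beta-mannosidase), -1.51 ± 0.15 (SE, adjusted p = 1.64e-05) for HEXA (the alpha subunit of beta-hexosaminidase), -1.40 ± 0.163 (SE, adjusted p = 5.3e-05) for ARSA (a sulfatide sulfatase), -1.32 ± 0.148 (SE, adjusted p = 4.02e-05) for ARSB (a sulfatase for dermatan sulfate) and -1.30 ± 0.135 (SE, adjusted p = 2.26e-05) for NAGLU (a heparan sulfate glucosaminidase). Their pseudopodia means lay between 14.9 CPM for HEXA and 36.4 CPM for NAGLU, and their cell body means between 42.4 CPM for HEXA and 89.8 CPM for NAGLU. GLA had 4.61, 4.63 and 5.96 CPM in pseudopodia, 16.2, 13.3 and 11.8 CPM in cell body and 8.78, 9.46 and 8.99 CPM in whole cell. GLA (alpha-galactosidase) changed by -1.45 ± 0.172 (SE, adjusted p = 6.03e-05). NEU1 had 39.5, 31.9 and 46.6 CPM in pseudopodia, 87.5, 86.0 and 83.4 CPM in cell body and 59.9, 68.1 and 63.6 CPM in whole cell. NEU1, the lysosomal sialidase, changed by -1.12 ± 0.145 (SE, adjusted p = 0.000115), and both genes had 3 separate groups. MAN2B1 had 50.1, 44.8 and 61.6 CPM in pseudopodia, 74.6, 80.6 and 76.9 CPM in cell body and 65.7, 66.2 and 67.1 CPM in whole cell. MAN2B1 (alpha-mannosidase) had the smallest called change of the group, -0.57 ± 0.133 (SE, adjusted p = 0.00579), although its pseudopodia libraries were still the lowest.

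IDS, the sulfatase that starts the breakdown of heparan and dermatan sulfates, was the tested gene without a call. IDS had 20.4, 20.9 and 18.3 CPM in pseudopodia, 12.4, 19.8 and 19.4 CPM in cell body and 18.2, 14.2 and 17.6 CPM in whole cell. IDS (ENSG00000010404, chromosome X, 149476990 to 149521096, minus strand) was at 0.21 ± 0.188 (SE, adjusted p = 0.399) on the log2 scale in pseudopodia against cell body, and pseudopodia replicate 3 fell between cell body libraries. The sign turned on log2(TPM + 1) and on log2(TPM + 0.1), with -0.04 in each. A pseudogene copy, IDSP1, exists, and genes that share exon bases with IDS had at most 1.74% of its counts.

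Proteins of lipid breakdown and sterol transport were lower in pseudopodia than in cell body in 6 of 6 cases. LIPA had 31.8, 26.8 and 32.3 CPM in pseudopodia, 123, 141 and 147 CPM in cell body and 119, 122 and 122 CPM in whole cell. LIPA (ENSG00000107798, chromosome 10, 89213569 to 89414557, minus strand), the acid lipase for cholesteryl esters, changed by -2.18 ± 0.129 (SE, adjusted p = 5.08e-07). IFIT2, which overlaps it on the other strand, had up to 41.0% as many counts. PSAP had 471, 389 and 554 CPM in pseudopodia, 1825, 1932 and 1932 CPM in cell body and 1459, 1513 and 1489 CPM in whole cell. PSAP (ENSG00000197746, chromosome 10, 71816298 to 71851375, minus strand), the precursor of the saposins that help enzymes to reach sphingolipids, changed by -2.01 ± 0.14 (SE, adjusted p = 1.43e-06), a pseudopodia level of 24.9% of the cell body level. Both genes had 3 groups that did not overlap.

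ASAH1 (acid ceramidase) averaged 43.5 ± 10.3 CPM in pseudopodia, 157 ± 7.04 CPM in cell body and 141 ± 0.744 CPM in whole cell (SD, n = 3 each) and changed by -1.85 ± 0.167 (SE, adjusted p = 8.43e-06). SMPD1 (acid sphingomyelinase) averaged 76.2 ± 23.1 CPM in pseudopodia, 180.5 ± 6.67 CPM in cell body and 158 ± 6.46 CPM in whole cell and changed by -1.25 ± 0.185 (SE, adjusted p = 0.000305). GM2A, an activator of ganglioside breakdown, averaged 38.2 ± 7.60 CPM in pseudopodia, 75.9 ± 3.05 CPM in cell body and 80.4 ± 1.74 CPM in whole cell and changed by -0.99 ± 0.144 (SE, adjusted p = 0.000264), and it has named pseudogene copies. NPC2 had 142, 122 and 159 CPM in pseudopodia, 213, 193 and 194 CPM in cell body and 117, 128 and 122 CPM in whole cell. NPC2, which hands cholesterol to NPC1 inside the lysosome, changed least of the group, -0.50 ± 0.125 (SE, adjusted p = 0.00817). With the correction for GC content and length it was -0.22 and no longer called (adjusted p = 0.293). Its pseudopodia libraries lay below those of cell body and overlapped those of whole cell.

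**Figure D3:**
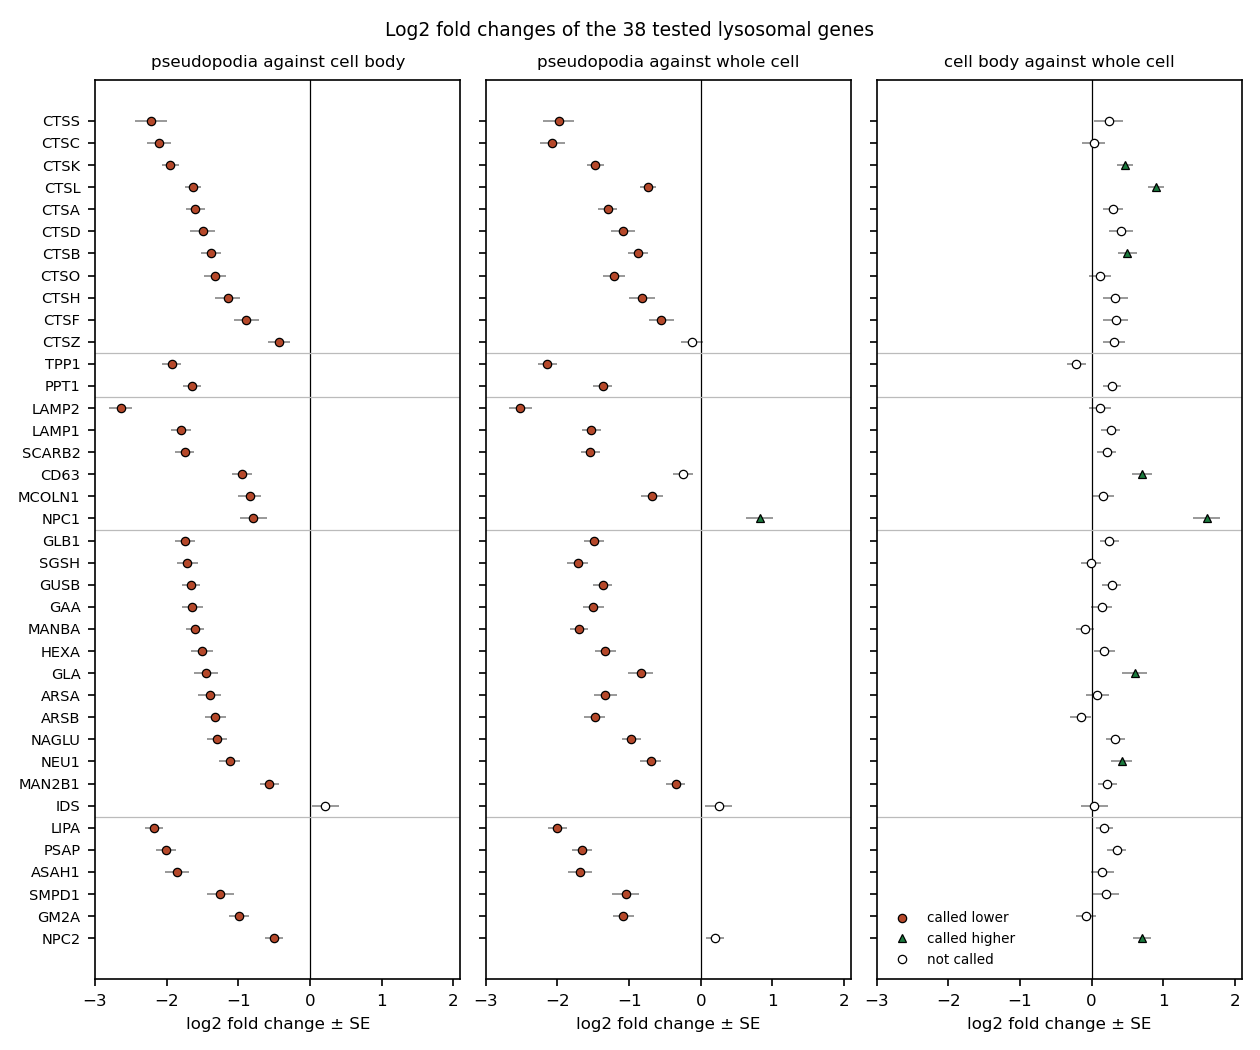
Log2 fold changes (x axis, with SE) of the 38 tested genes are drawn for pseudopodia against cell body (left), pseudopodia against whole cell (middle) and cell body against whole cell (right), grouped by role from cathepsins at the top to lipid and sterol proteins at the bottom. In the left panel 37 genes are called lower, between -2.64 for LAMP2 and -0.43 for CTSZ, and the right panel holds 8 called higher, led by NPC1 at 1.61.

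Pseudopodia were also compared with whole cells, which shares its pseudopodia libraries with the comparison above. Of the 38 genes, 1 was called higher and 33 were called lower in pseudopodia, against 27.9% of all tested genes higher and 33.1% lower. At least 2-fold lower were 24, and the share of all tested genes at that fold was not counted. The median log2 fold change was -1.31, beside -0.12 over all tested genes. The lowest values were -2.52 ± 0.159 (SE, adjusted p = 4.4e-07) for LAMP2, -2.14 ± 0.133 (SE, adjusted p = 4.1e-07) for TPP1, -2.07 ± 0.169 (SE, adjusted p = 2.38e-06) for CTSC, -2.0 ± 0.128 (SE, adjusted p = 4.77e-07) for LIPA and -1.98 ± 0.216 (SE, adjusted p = 1.8e-05) for CTSS. After the correction for GC content and length, values that moved by more than 1.5-fold were -1.27 for LAMP2, -0.99 for CTSC, -1.36 for LIPA, -1.02 for CTSS and -1.02 for ASAH1 (-1.69 without it), all still called. CTSO was -0.27 after it and not called (adjusted p = 0.0882), beside -1.21 ± 0.151 (SE, adjusted p = 4.7e-05) without it.

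NPC1 was the gene called higher in pseudopodia than in whole cell, at 0.82 ± 0.184 (SE, adjusted p = 0.00255), with 77.5 CPM in its lowest pseudopodia library and 47.8 CPM in its highest whole cell library. On log2(TPM + 1) it was 0.34 and not called (adjusted p = 0.124). The 4 genes without a call were CTSZ (-0.12, adjusted p = 0.526), CD63 (-0.25, adjusted p = 0.136), IDS (0.25, adjusted p = 0.261) and NPC2 (0.20, adjusted p = 0.181). The libraries of CTSZ, CD63 and NPC2 overlapped between pseudopodia and whole cell. CD63 was called lower in 7 of 19 alternatives, with -0.57 after the correction for GC content and length and -0.73 on log2(TPM + 1). Among the called genes, the smallest changes were -0.35 (adjusted p = 0.0401) for MAN2B1, -0.55 (adjusted p = 0.0172) for CTSF, -0.68 (adjusted p = 0.0033) for MCOLN1 and -0.70 (adjusted p = 0.00153) for NEU1. MAN2B1 lost its call in 9 of 19 alternatives, and leaving out pseudopodia replicate 1 or 2 or any whole cell replicate was enough (-0.34 to -0.24). CTSF lost it without pseudopodia replicate 1 (-0.52, adjusted p = 0.055) and without whole cell replicate 1 (-0.51, 0.0661) or 2 (-0.48, 0.0769).

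Cell bodies were then compared with whole cells, which shares its cell body libraries with the first comparison and its whole cell libraries with the second. Of the 38 genes, 8 (21.05%) were called higher and 0 lower in cell body, against 18.1% of all tested genes higher and 20.5% lower. The higher count lay between 13 and 23 in 6 of the 19 alternatives, among them 18 with the correction for GC content and length and 23 with only the 6 libraries compared, and it was 5 without whole cell replicate 1 or 3. The 0 lower was also 0 at an unadjusted p under 0.05 and with DESeq2, and it was 1 in 5 of the other alternatives. The median log2 fold change was 0.24, beside -0.06 over all tested genes. NPC1 led with 1.61 ± 0.187 (SE, adjusted p = 0.000103), followed by CTSL with 0.90 ± 0.112 (SE, adjusted p = 0.000158), NPC2 with 0.71 ± 0.126 (SE, adjusted p = 0.00152), CD63 with 0.70 ± 0.14 (SE, adjusted p = 0.00297) and GLA with 0.60 ± 0.168 (SE, adjusted p = 0.0157). CTSB followed with 0.50 ± 0.136 (SE, adjusted p = 0.0138), CTSK with 0.47 ± 0.113 (SE, adjusted p = 0.00733) and NEU1 with 0.42 ± 0.144 (SE, adjusted p = 0.0375). The cell body and whole cell libraries of all 8 genes did not overlap, but that held for 26 of the 38 genes, most of them without a call. Its share over all tested genes was not counted for this comparison.

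For NPC1, the lowest cell body library (replicate 1, 102 CPM) was still above the 47.5 to 47.8 CPM of whole cell. NPC1, CTSL, NPC2, CD63 and CTSK were called in all 19 alternatives. The call was lost in 10 alternatives for NEU1, in 4 for GLA and in 2 for CTSB. The 30 genes without a call lay between -0.21 (adjusted p = 0.226) for TPP1 and 0.41 (adjusted p = 0.0704) for CTSD, and PSAP was at 0.35 (adjusted p = 0.0604). After the correction for GC content and length, LAMP2 (0.76) and CTSC (0.70) were called higher in cell body, beside 0.12 and 0.03 without it.

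Read over the 3 comparisons, 28 genes were lower in pseudopodia than in both other groups and had no call between cell body and whole cell, a number that moves with the count of higher calls in that comparison given above. LAMP1, LAMP2, PSAP, TPP1, LIPA and most glycosidases were among them. CTSB, CTSK, CTSL, GLA and NEU1 were also lower in pseudopodia than in both, and higher in cell body than in whole cell. CD63 and NPC2 were lower in pseudopodia than in cell body, had no call against whole cell, and were higher in cell body than in whole cell. NPC1, CTSZ and IDS each had a pattern of their own, described above. The 3 comparisons share libraries, and the shares of all tested genes with these patterns were not counted.

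Within the pseudopodia group the 3 libraries differed more than in the other groups. The median coefficient of variation over the 38 genes was 16.4% among pseudopodia libraries, 5.81% among cell body libraries and 2.84% among whole cell libraries. Replicate 2 was the lowest pseudopodia library for 27 of the 38 genes and replicate 3 the highest for 28. The difference of replicate 3 from the mean of the other 2 (log2 CPM) ranged between -0.64 for ASAH1 and 0.69 for SMPD1, with a median of 0.31. Over the 38 genes this difference had a correlation of 0.80 with the GC content of the longest coding transcript, a description over genes of the same 3 libraries. LAMP2 (37.7% GC), CTSC (38.2%), CTSS (39.5%), CTSO (40.2%), ASAH1 (42.1%) and SCARB2 (42.8%), all low in GC, were below the mean of the other 2 in replicate 3, while SMPD1 (60.2%), CTSF (60.1%) and ARSA (66.0%) were above it. The fold changes of pseudopodia against cell body had a correlation of 0.30 with GC content over the 38 genes and of 0.19 over all tested genes with a known value. The part of GC content in the group differences was not tested beyond the correction given above, after which the median of the 38 genes against cell body was -1.47.

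**Figure D4:**
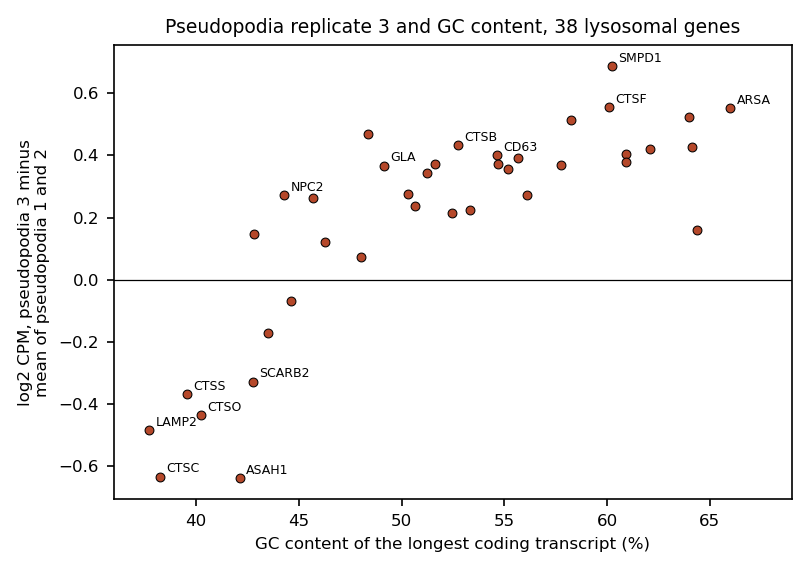
Each point is 1 of the 38 tested genes, with the GC content of its longest coding transcript (percent) on the x axis and the log2 CPM of pseudopodia replicate 3 minus the mean of replicates 1 and 2 on the y axis. LAMP2, CTSC, CTSS, CTSO, ASAH1 and SCARB2, on the left, lie below 0, and the genes with the highest GC content, such as ARSA and NAGLU, lie above it.

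Among the promoter windows shown above, LAMP1 had 6 copies of the E-box core in its full window, CTSA, GAA and MCOLN1 had 2 each, and CD63 had 1. CTSD, CTSF and NEU1 held it as well. Genes with the core had a median log2 fold change of -1.31 in pseudopodia against cell body (8 genes, -1.80 to -0.84), and genes whose window had no match had -1.38 (18 tested genes, -2.18 to 0.21). The range of the genes with the core lay inside the wider range of the genes without it, and a match is a description of letters only.

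The factors that bind this element were measured too. TFEB had 13.9, 11.4 and 17.4 CPM in pseudopodia, 8.16, 7.60 and 6.44 CPM in cell body and 8.01, 8.47 and 7.75 CPM in whole cell, which is 0.94 ± 0.178 (SE, adjusted p = 0.00158) on the log2 scale against cell body. TFE3 changed by 0.51 ± 0.145 (SE, adjusted p = 0.0173) and MITF by 1.32 ± 0.285 (SE, adjusted p = 0.00368) (0.45 on log2(TPM + 1)). The 3 tested factors were thus all called higher in pseudopodia than in cell body, while 37 of the 38 lysosomal genes were called lower. Of all tested genes, 18.6% were higher and 19.9% lower in that comparison. Against whole cell, 2 of the 3 factors were called higher, beside 27.9% of all tested genes. TFE3 lost its call against cell body in 4 of 19 alternatives, and the related TFEC failed the expression filter. This is a contrast of mRNA shares and holds no measure of factor activity.

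Other genes of the lysosomal system were compared between pseudopodia and cell body by list, where 18.6% of all tested genes were higher and 19.9% lower. Of 19 other lysosomal hydrolases, 0 were called higher and 17 lower, with a median of -1.46, among them AGA (-2.28), FUCA1 (-2.16) and SIAE (-2.14). AGA and FUCA1 act in glycoprotein breakdown, and SIAE removes acetyl groups from sialic acid. Of 19 tested other membrane and transport proteins, 13 were lower, among them MFSD8 (-2.33, or -1.56 on log2(TPM + 1)), OSTM1 (-2.10), LAPTM4A (-1.96) and LMBRD1 (-1.92). TMEM192 (1.00), named after its value was seen, was the 1 called higher, and it was 0.23 and not called on log2(TPM + 1). The list of other hydrolases lay close to the 39 genes, and the median of the membrane list was -0.60.

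The machinery that sends hydrolases to lysosomes was mixed, with 2 of 13 genes higher (15.38%) and 7 lower (53.85%). The shares over all tested genes were 18.6% higher and 19.9% lower. The sorting receptors M6PR (-1.36 ± 0.123 SE, adjusted p = 8.18e-06), IGF2R (-0.97 ± 0.174 SE, adjusted p = 0.0011) and SORT1 (-0.71 ± 0.143 SE, adjusted p = 0.00226) were lower in pseudopodia, as were SUMF1 (-1.49), which activates sulfatases, and NAGPA (-1.07), which uncovers the mannose phosphate tag. GGA2, a cytosolic adaptor for these receptors, had 389.8, 362 and 537 CPM in pseudopodia, 51.1, 60.5 and 60.6 CPM in cell body and 54.8, 53.3 and 53.3 CPM in whole cell. It was far higher in every pseudopodia library, 2.90 ± 0.166 (SE, adjusted p = 4.21e-07) against cell body. The related GGA3 (0.54), named after its value was seen, was the other gene called higher.

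Against cell body, 19.9% of all tested genes were lower and 18.6% higher in pseudopodia. Subunits of the V-ATPase, the proton pump that acidifies lysosomes, were lower in pseudopodia than in cell body in 8 of 16 cases and higher in 0. Its membrane-bound accessory proteins ATP6AP2 (-2.45 ± 0.168 SE, adjusted p = 1.34e-06) and ATP6AP1 (-1.78 ± 0.147 SE, adjusted p = 4.3e-06) changed most, and ATP6V1E1 (-0.84) and ATP6V0B (-0.74) followed. Among 8 tested inhibitors of cathepsins and other proteases, 2 were lower, A2M (-1.73) and CST3 (-0.47, called in 11 of 19 alternatives). That share of 25.0% was near the 19.9% over all tested genes. CSTB, a cytosolic cathepsin inhibitor, was at 0.17 (adjusted p = 0.274) and turned to -0.12 on log2(TPM + 1). The median of the V-ATPase list was -0.34 and that of the inhibitors -0.17. Against whole cell, 8 of the 16 V-ATPase genes were higher and 5 lower in pseudopodia, with a median of 0.31. Of all tested genes, 27.9% were higher and 33.1% lower there.

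Genes that signal from, move or fuse lysosomes were described in 3 lists. The shares called higher and lower were 33.3 and 0% for the Ragulator list and 27.8 and 11.1% for the positioning list. They were 8.33 and 16.7% for the fusion list, beside 18.6 and 19.9% of all tested genes. Of 12 Ragulator, Rag and mTOR complex genes, 4 were higher and 0 lower, but 1 was higher and 4 lower on both TPM scales, and 7 higher and 2 lower with limma-voom. RPTOR (0.67) was called in all 19 alternatives, LAMTOR1 (0.50) in 15, RRAGC (0.34) in 11 and MTOR (0.47) in 8. Of 18 lysosome positioning genes, 5 were higher and 2 lower, and 4 were higher and 5 lower on both TPM scales. The kinesins KIF5B (2.16 ± 0.44 SE, adjusted p = 0.00406; 1.29 with limma-voom) and KIF1B (0.92 ± 0.163 SE, adjusted p = 0.00105) and the adaptor PLEKHM2 (1.31 ± 0.154 SE, adjusted p = 5.7e-05), which join lysosomes to microtubule plus-end transport, were higher in pseudopodia. Of 12 genes of vesicle tethering and fusion, 1 was higher, the SNARE VTI1B (0.69), and 2 were lower, the tethering subunits VPS18 (-0.57) and VPS11 (-0.48). VPS18 lost its call in 4 of 19 alternatives and VPS11 in 3, each time when 1 library was left out, and 5 genes of this list were lower on both TPM scales. The medians of these 3 lists were 0.29, 0.10 and -0.11.

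**Figure D5:**
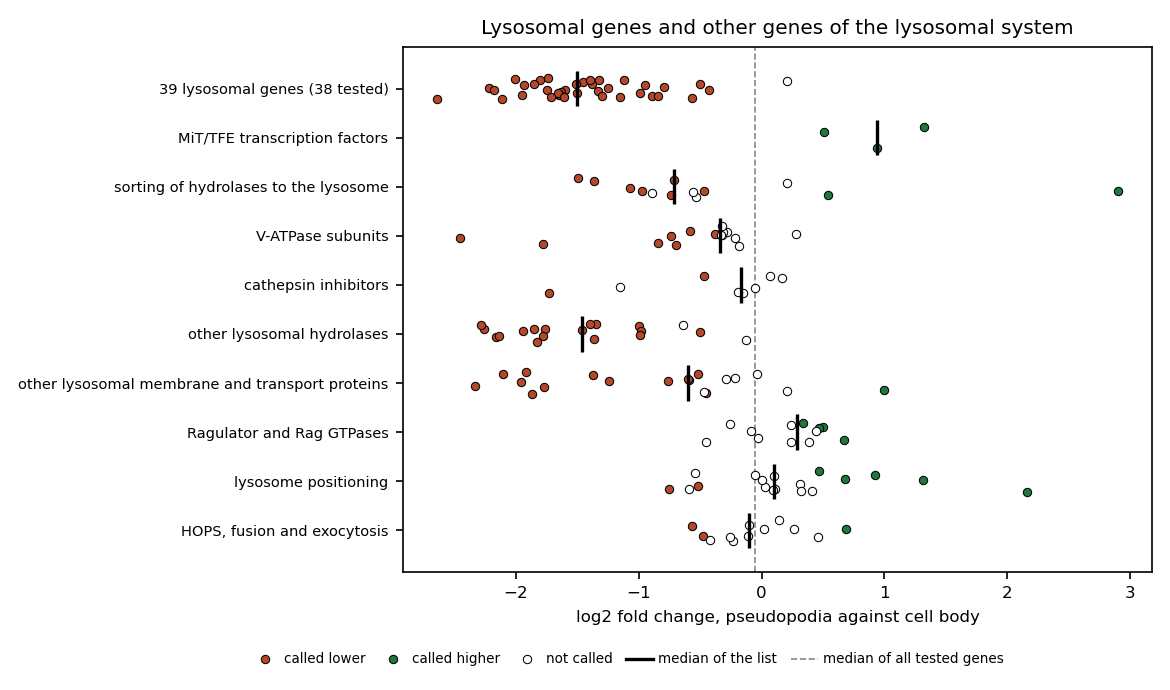
Log2 fold changes of pseudopodia against cell body (x axis) are drawn for the 38 tested lysosomal genes and for 9 lists of related genes, 1 point per gene, with a black bar at the median of each list and a dashed line at the median of all tested genes. The lysosomal genes and the other hydrolases lie mostly below -1, with medians of -1.51 and -1.46, and the lists of Ragulator and positioning genes have medians of 0.29 and 0.10.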

How the data were processed

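The authors deposited a whole-number read count for each gene and library, made with featureCounts per the labels, and a TPM value beside it. The TPM values, too, are as deposited. The build was GRCh38 and DESeq2 was used, per the submitters' processing notes. For the aligner, annotation release, strand setting and versions, nothing is stated in the labels or headers read here.

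All 9 libraries entered 1 robust quasi-likelihood fit in edgeR 4.0.16 under R 4.3.3, scaled by TMM after filterByExpr had removed low counts. Of 62709 genes, 19426 were tested, p-values were Benjamini-Hochberg adjusted over all of them, and those under 0.05 were called. Log2 fold changes have SE from the test statistic, and CPM is given as values or mean ± SD. The test was run on simulated counts with the same spread in all groups, so that check does not cover groups that differ in spread. Positions, GC content, lengths and overlaps came from GENCODE 29, and promoter windows from RefSeq (GRCh38.p14). Alternatives were other size factors, filters, a GC and length correction (GC known for 96.1% of tested genes), DESeq2 1.42.0, limma 3.58.1 (voom, and on log2 TPM with pseudocounts of 1 and 0.1), the 6 libraries compared, a replicate block, and leaving out each library. The fit shares 1 spread over groups that differ in spread, so p-values may be too small for pseudopodia.

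The 39 genes and all lists were chosen with earlier results of these data known. Values in every library were given for a set list of 13 genes and for the called genes with the 5 highest and 5 lowest log2 fold changes of each comparison. From each list of other genes, up to 4 called genes with the largest change were named, besides 10 named in advance. Some genes that this rule names are not reported here.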

Additional observations from a re-analysis of the deposited data

How the results depend on the processing

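Between pseudopodia and cell body, 35 of 37 calls were kept in all 19 alternatives (CTSZ and NPC2 were not), and the count of lower genes lay between 36 and 38. Between pseudopodia and whole cell, 30 of 34 calls were kept, and the lower count lay between 31 and 36. The higher count there was 3 after the correction for GC content and length, 3 with limma-voom, 3 with the replicate block plus that correction, 0 on both log2 TPM scales, and 1 to 2 when 1 library was left out. Between cell body and whole cell, 5 of 8 calls were kept. The higher count there was 15 without mitochondrial and ribosomal protein genes, 18 with the GC and length correction, 13 with no low-count filter, 22 with limma-voom, 23 with only the 6 libraries compared, 16 with the block plus the correction, and 5 to 7 when 1 library was left out (5 without whole cell replicate 1 or 3). The lower count was 1 with the GC and length correction, the 5 CPM filter, both TPM scales and the block plus the correction. For the lists in pseudopodia against cell body, limma-voom called 1 V-ATPase gene higher and 13 lower, 1 inhibitor higher, 7 Ragulator genes higher and 2 lower, 8 positioning genes higher and 4 lower, and 4 fusion genes lower. On both TPM scales 1 sorting gene was higher, 13 V-ATPase genes lower, 4 inhibitors lower, 0 other membrane genes higher, 1 Ragulator gene higher and 4 lower, 5 positioning genes lower and 5 fusion genes lower. With the GC and length correction, and with the block plus it, 1 inhibitor and 3 fusion genes were higher and 1 Ragulator gene lower. The 5 CPM filter gave 0 other membrane genes higher and 1 Ragulator gene lower, upper-quartile factors 1 inhibitor lower, and the 6 libraries alone 2 Ragulator genes higher. Leaving out 1 library gave 5 to 12 V-ATPase genes lower (5 without cell body replicate 1), 1 to 2 inhibitors lower (1 without pseudopodia replicate 1 or 2 or cell body replicate 1 or 2), 1 to 5 Ragulator genes higher (1 without cell body replicate 2, 2 without cell body replicate 3 or pseudopodia replicate 1) and 0 to 1 lower (1 without pseudopodia replicate 2 or 3), 2 to 4 positioning genes lower (4 without pseudopodia replicate 2) and 0 to 4 fusion genes lower (4 without pseudopodia replicate 3, 1 or 0 without any of the other 5 libraries). Signs turned on log2(TPM + 1) and log2(TPM + 0.1) for IDS against cell body (-0.04 and -0.04), IDS against whole cell (-0.18 and -0.20), NPC2 against whole cell (-0.26 and -0.27), CSTB against cell body (-0.12 and -0.12) and, between cell body and whole cell, LAMP2 (-0.07 and -0.07) and CTSC (-0.14 and -0.14; also -0.05 with upper-quartile factors and -0.05 with the 5 CPM filter), and for CTSZ against whole cell without pseudopodia replicate 2 (0.01, in a range of -0.30 to 0.01 over libraries left out). Of the 25 genes whose values between cell body and whole cell are not printed, 9 changed sign in some alternative (their largest log2 fold change on counts was 0.16) and 16 gained a call in some alternative. The TPM scales put the median of all genes at -0.17 and -0.31 in pseudopodia against cell body, beside -0.05 on counts, and log2(TPM + 1) called 2310 genes higher and 5907 lower, beside 3605 and 3870. In pseudopodia against whole cell the same scale called 3227 higher and 9687 lower, beside 5412 and 6430, and in cell body against whole cell 2643 and 5898, beside 3521 and 3980. The cause of these shifts was not tested. Deviations from the group mean had correlations between -0.081 and 0.09 for libraries of the same replicate number. The labels do not say whether such libraries belong together, and with 3 libraries per group these values cannot settle it. With the replicate block, 36 genes were lower against cell body, 32 lower and 1 higher against whole cell, 7 higher in cell body than in whole cell, 1 inhibitor lower and 2 Ragulator genes higher.

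With 3 libraries per group from 1 line, and pseudopodia that vary most, small differences such as those of CTSZ, MAN2B1 and IDS are the least certain. Depth limits CTSV, at 12 counts or fewer per library. Counts of 17 of the 39 genes could include reads of a gene that shares exon bases. The values are shares of a library, so no amount per cell was measured.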
